A study of Mus musculus with 8 samples.

Results

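The J-domain protein family of the mouse, which includes Dnajc17, was described here in RNA of the basilar membrane, the strip of the cochlea that carries the sensory hair cells and their supporting cells. Members were the protein-coding genes whose name begins with Dnaja, Dnajb or Dnajc and a number, 45 of the 78317 genes in the table: 4 Dnaja, 13 Dnajb and 28 Dnajc genes. The 8 libraries came from mice at postnatal day 6, with 1 µg of total RNA taken into a stranded library preparation for mRNA. The 4 libraries titled homo carry the genotype label Dnajc17 cKO, a conditional knockout, and the 4 titled hete carry the label WT, so title and genotype label differ on whether the controls hold a mutant allele. The promoter or cell type that drives the deletion, the deleted exons, the strain and the number of animals behind a library were not stated in the sources used here. P-values therefore measure the spread between libraries, which may be technical.

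J-domain proteins, also called HSP40 proteins, bind HSP70 chaperones through a conserved helical domain and switch on their ATPase, so that an HSP70 grips its client where the J-domain protein has brought it. The letters of the name follow protein architecture: A members keep the zinc finger and client-binding domains of bacterial DnaJ, B members lack the zinc finger, and C members share only the J domain and are otherwise diverse. Dnajc17 is a C member with an RNA recognition motif at its far end. Its yeast relative Cwc23 works with the factors that take spent spliceosomes off the excised intron, and human DNAJC17 is found with spliceosomes in nuclear speckles.

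Levels are in TPM, transcript copies relative to a fixed library total after division by transcript length, so different genes can be set side by side. TPM does not keep the sequencing depth, which is unknown here, and zeros are reported as listed at 0. Group levels are written as mean ± SD of 4 libraries (n = 4 in each group). The log2 difference is the log2 fold change of homo over hete, fitted with limma-trend on TPM + 1 and given with its SE, and p-values were adjusted over the 17811 genes whose mean reached 1 TPM. Between 28159 and 28969 genes were above 0 in each library. The tissue label was checked against marker genes. Of 12 hair cell markers, 11 had a mean of at least 1 TPM and none was at 0 in all libraries, with a summed level of 469.37 to 647.03 TPM in hete and 363.17 to 530.88 in homo. A single hair cell marker alone stood at 100.86 to 277.77 TPM in hete and 57.53 to 121.98 in homo. All 8 supporting cell markers were present, at 4752.85 to 5483.82 TPM in hete and 5490.25 to 5895.58 in homo. The supporting cell sums did not overlap between the groups, by a narrow gap from 5483.82 to 5490.25 TPM. Most of each sum was 1 gene, Tectb, at 3847.26 to 4358.89 TPM in hete and 4466.45 to 4879.41 in homo. Of the 8 supporting cell markers, 3 had groups that did not overlap, as was so for 3.99% of all tested genes. Non-overlapping groups were also found for 1 of 11 tested hair cell markers (lower in homo) and 1 of 8 neuron markers (higher in homo). For glia, macrophage, erythroid and mesenchyme markers there were 0. Neuron, glia, macrophage, erythroid and mesenchyme markers were present too, with sums up to 548.57, 1727.92, 258.93, 5329.32 and 12230.8 TPM. Of the markers tested, 8 of 8 for supporting cells, 8 of 8 for neurons and 7 of 7 for glia had a higher mean in homo on the log2 scale, as did 4 of 6 for mesenchyme, 4 of 11 for hair cells, 2 of 6 for macrophages and 0 of 5 for erythroid cells. None of these markers was called by limma-trend, where 2 of all 17811 tested genes, 0.0112%, were called. That share is the background for every count of calls below. An unadjusted p under 0.05 was found for 3 of 11 hair cell, 3 of 8 supporting cell and 2 of 8 neuron markers. The same held for 1 of 7 glia, 1 of 6 macrophage, 0 of 6 mesenchyme and 0 of 5 erythroid markers. The 2 neuron markers did not include Tubb3, Nefl, Nefm or Snap25, whose log2 differences were 0.02 to 0.16 (SE 0.34 to 0.35). Over all tested genes, 56.3% were higher in homo and 6.05% had an unadjusted p under 0.05. The part of cell makeup in the family values was not tested. In such mixed tissue, fewer cells of a type and less RNA per cell cannot be told apart.

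The family as a whole was broadly transcribed in the basilar membrane. Of the 45 members, 33 averaged 10 TPM or more across libraries and 5 averaged 100 TPM or more. Summed over the family, the level was 1851.78 ± 59.7 TPM in hete and 1867.8 ± 98.3 in homo. Dnajc genes made up 52.3% of that sum, Dnajb genes 24.3% and Dnaja genes 23.3%. By place of work, 12 cytosolic members held 47.8% of the family's TPM, 11 members of the endoplasmic reticulum 22.7%, 5 nuclear and splicing-linked members 13.5%, 7 mitochondrial members 11.2%, and 5 vesicle and endosome members 4.31%. The homo libraries spanned a wider range of the summed level than the hete libraries, and the groups overlap.

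The order of levels was led by Dnaja1, a main cytosolic partner of HSP70, at 289 TPM on average and 15.6% of the family. Dnajc7, a co-chaperone that also docks on HSP90, followed at 189 TPM, then Dnajc8 at 142, Dnajb6, a suppressor of protein aggregation, at 128, and Dnajb11, a chaperone of the endoplasmic reticulum, at 108. Dnajc17 stood 21st of 45, at 25.7 TPM, which is above 65.7% of all tested genes. Of the 44 pairs of neighbours in this order, 37 had overlapping ranges over the 8 libraries, so most ranks are not resolved. The 7 steps that were resolved included those from Dnaja1 to Dnajc7, from Dnajc7 to Dnajc8 and from Dnajb6 to Dnajb11. In hete, the range of Dnajc17 overlapped those of 7 other members, Dnajb12, Dnajb1, Dnajc18, Dnajc2, Dnajc13, Dnajc24 and Dnaja4.

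**Figure D1:**
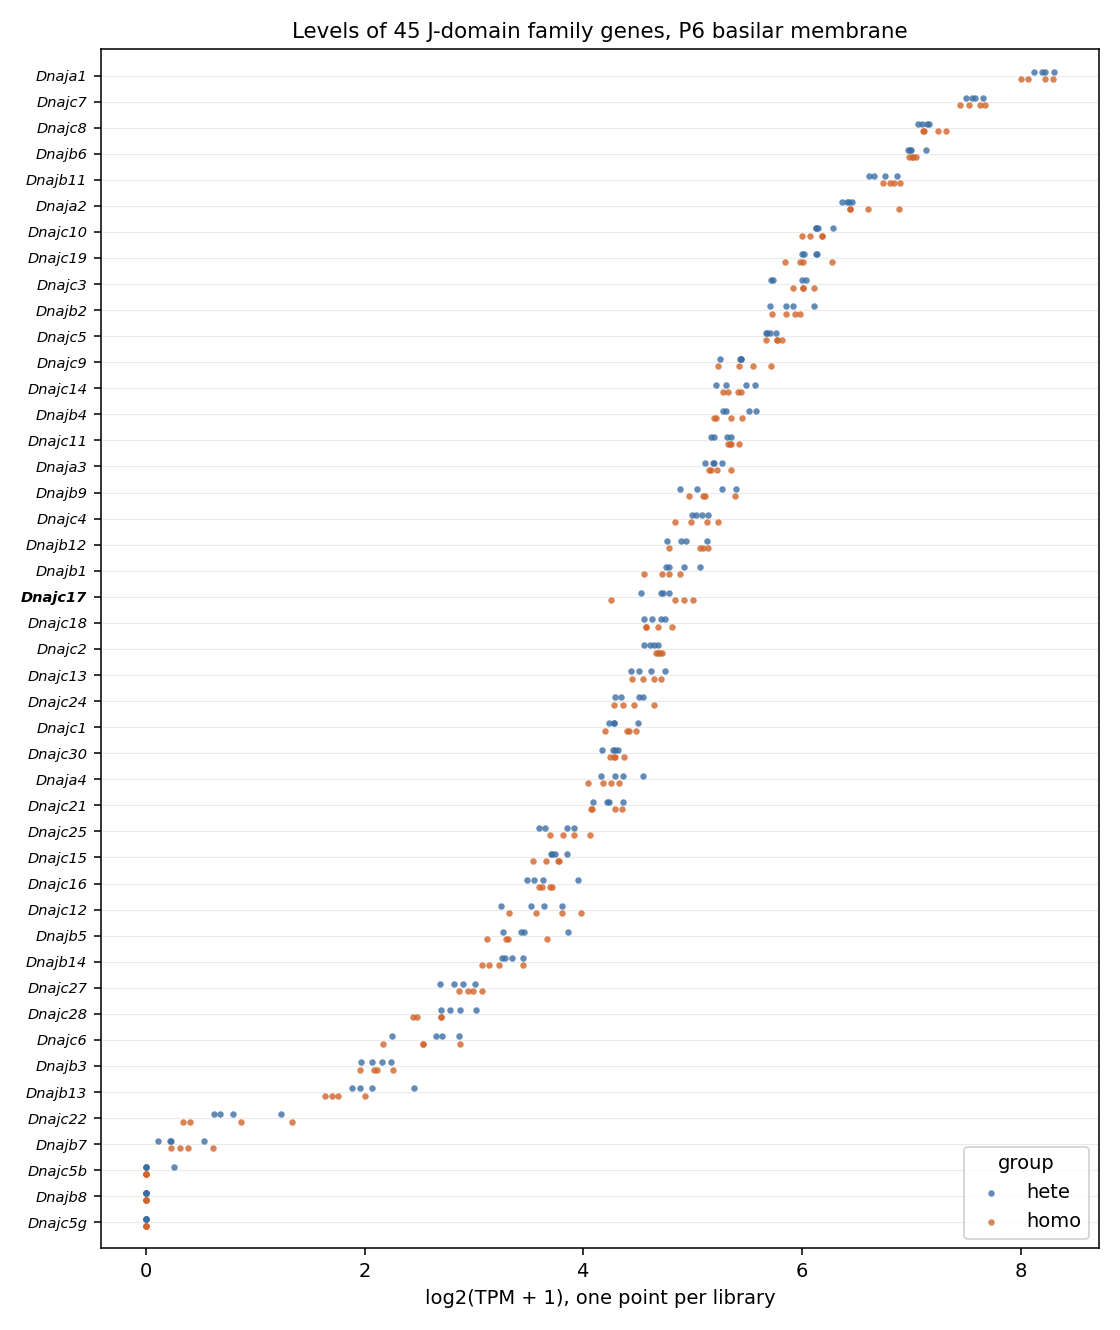
Levels of all 45 J-domain family genes on the log2(TPM + 1) scale (horizontal axis), ordered by their mean, with 1 point for each of the 4 hete (blue) and 4 homo (orange) libraries. Dnaja1 leads at 289 TPM on average, Dnajc17 (bold) lies in the middle at 25.7 TPM with its points further apart in homo than in hete, and the last 5 genes stay below a mean of 1 TPM.

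At the low end, 5 members had a mean under 1 TPM and were not tested. Dnajb8 and Dnajc5g, known mainly from testis, were listed at 0 in all 8 libraries. Dnajc5b was listed at 0 in all but hete replicate 3, where it had 0.19 TPM. Dnajb7 ranged from 0.08 to 0.53 TPM and Dnajc22 from 0.26 to 1.52. Just inside the filter lay Dnajb13 at a mean of 2.87 TPM and Dnajb3 at 3.31, both known for expression in testis, and Dnajb13 as a component of motile cilia. Pseudogenes named after members, Dnaja1-ps, Dnajb6-ps and Dnajc19-ps, were listed at 0 in all libraries except for 0.67 TPM of Dnajb6-ps in hete replicate 4. Other near-identical copies were not examined, and reads shared with them were not assessed.

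Dnajc17 (ENSMUSG00000034278, chromosome 2), the gene named in the genotype, is described first. Its promoter, the window from 250 bases before to 50 bases after the gene start taken from RefSeq, is shown for comparison with stress-responsive members further on, and holds no match (which would be in capitals) to any of the 3 motifs searched there.
Dnajc17 promoter, GRCm38.p6 chr2:119208746-119209045, minus strand: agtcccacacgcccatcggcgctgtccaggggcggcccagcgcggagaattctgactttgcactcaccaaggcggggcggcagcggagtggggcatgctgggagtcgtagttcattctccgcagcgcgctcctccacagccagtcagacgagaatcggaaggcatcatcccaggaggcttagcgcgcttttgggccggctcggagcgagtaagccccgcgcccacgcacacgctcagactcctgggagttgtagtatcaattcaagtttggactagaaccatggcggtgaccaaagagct

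In hete replicates 1 to 4, Dnajc17 had 26.51, 25.45, 25.09 and 22.06 TPM, and in homo replicates 1 to 4 it had 29.33, 27.65, 31.08 and 18.04 TPM. Homo replicates 1, 2 and 3 lay above every hete library, and homo replicate 4 lay below every one, so the groups overlap. The log2 difference was 0.07 (SE 0.15; limma-trend, adjusted p = 0.969), and a two-sided exact permutation test over the 8 libraries gave p = 0.743, where the smallest p that 70 regroupings can give is 0.0286. The 95% interval of the log2 difference ran from -0.27 to 0.41. Leaving out homo replicate 4 moved the log2 difference to 0.24 (adjusted p = 0.719 by limma-trend), and leaving out homo replicate 3 moved it to -0.01. It was 0.01 without homo replicate 1, 0.04 without homo replicate 2 and 0.02 without hete replicate 4. A level per gene over the whole tissue does not show whether exons are missing from the transcripts of some cells, so it does not check the genotype label.

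The spread of Dnajc17 between libraries differed in size between the groups, as a description chosen after its values were seen and without a test. Over the 4 homo libraries the SD of its log2(TPM + 1) was 0.34, the widest of the 40 tested members, whose median was 0.12. Over the 4 hete libraries it was 0.11, 23rd among the 40 members, whose median was 0.12. Among 6119 tested genes with a mean within 2-fold of that of Dnajc17, 95.3% had a smaller SD over the homo libraries and 34.7% a smaller SD over the hete libraries. The wide spread rested on homo replicate 4: without it the SD over the other homo libraries was 0.08. The outlier check given in a closing section did not flag the Dnajc17 value of that library. In homo replicate 4 the summed neuron markers were at their highest, 548.57 TPM against 304.12 to 437 in the other 7 libraries. Tubb3, Nefl, Nefm and Snap25 were each at their highest there. The largest part of that sum was Gata3 at 151.17 TPM, which was higher in hete replicate 4 at 176.91. The summed mesenchyme markers were at their lowest in homo replicate 4, 9962.37 TPM against 10201.2 to 12230.8. Most of that sum was 1 gene, Otor, at 8842.81 TPM in homo replicate 4 and 8878.48 in homo replicate 2. The glia markers, at 1634.28 TPM in homo replicate 4, were second to homo replicate 1. The part of these cell types in the value of Dnajc17 was not tested.

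**Figure D2:**
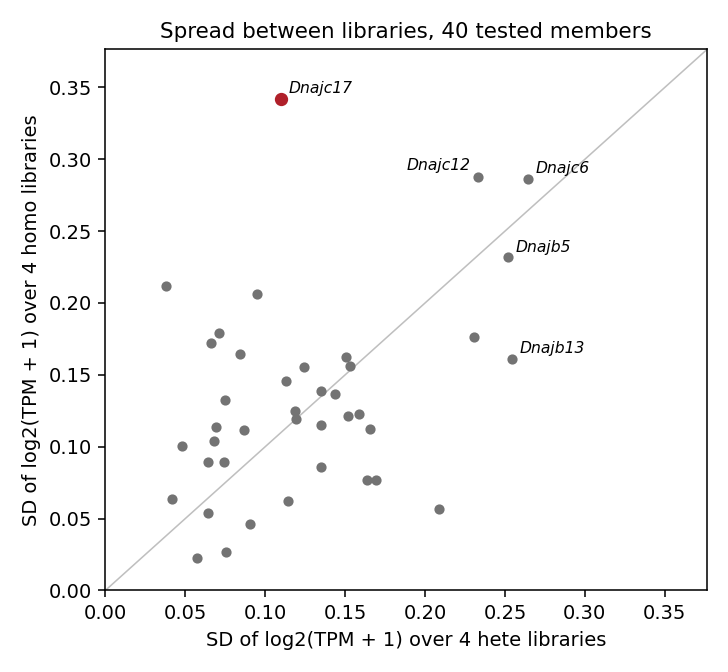
Each point is 1 of the 40 tested members, placed by the SD of its log2(TPM + 1) over the 4 hete libraries (horizontal axis) and over the 4 homo libraries (vertical axis), with a line of equal spread. Dnajc17 (red) lies highest, at 0.34 in homo and 0.11 in hete, while Dnajc12 and Dnajc6 are wide in both groups.

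The other nuclear and splicing-linked members were measured next, as the closest by place of work to Dnajc17. Dnajc8, which is found with spliceosomes and binds a kinase of SR splicing factors, was 5.53 times as abundant as Dnajc17. It had 140.61, 142.5, 132.31 and 136.04 TPM in hete and 158.48, 137.21, 150.51 and 137.8 TPM in homo. Homo replicates 1 and 3 lay above all hete libraries and the other homo libraries within their range (log2 difference 0.08 with SE 0.06, adjusted p = 0.891 by limma-trend).

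Dnajc9, a chaperone of histones H3 and H4, stood at 42.59, 42.48, 42.08 and 37.05 TPM in hete and at 51.71, 41.93, 46 and 36.58 TPM in homo (log2 difference 0.09 with SE 0.10, adjusted p = 0.929 by limma-trend). Its pattern over libraries resembled that of Dnajc17, a likeness noticed after the values were seen: both were at their highest in homo replicates 1 and 3 and at their lowest in homo replicate 4 and hete replicate 4. Its log2 difference was 0.01 without homo replicate 1, 0.04 without hete replicate 4 and 0.17 without homo replicate 4.

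Dnajc2, a partner of the ribosome-associated HSP70 Hspa14 that also acts on chromatin, varied little, at 23.44, 24.1, 24.73 and 22.46 TPM in hete and 25.29, 24.71, 24.34 and 24.93 TPM in homo (log2 difference 0.07 with SE 0.06, adjusted p = 0.911 by limma-trend). Hspa14 itself stood at 40.2 ± 1.15 TPM in hete and 40.03 ± 1.06 in homo. Dnajc21, which acts in maturation of the large ribosomal subunit, had 15.95, 17.62, 19.54 and 17.78 TPM in hete and 19.41, 18.5, 15.76 and 15.85 TPM in homo (log2 difference -0.03 with SE 0.09, adjusted p = 0.980 by limma-trend). For both genes the groups overlap.

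Of these 5 nuclear and splicing-linked members, 4 were higher and 1 lower in homo, with a median log2 difference of 0.07, and none passed the test. The 5 include Dnajc17, the gene named in the genotype, and the median is its own value. The others were at 0.08 (Dnajc8), 0.09 (Dnajc9), 0.07 (Dnajc2) and -0.03 (Dnajc21). Over all 17811 tested genes the median was 0.02, 56.3% were higher and 0.0112% were called. The median of the 5 was 0.01 without homo replicate 1, again the value of Dnajc17. It was 0.04 without hete replicate 4 and 0.11 without homo replicate 4. The sum of the 5 was 245 ± 7.34 TPM in hete and 259 ± 22 in homo. Most of it was Dnajc8, at 138 ± 4.59 TPM in hete and 146 ± 10.3 in homo, so the sum largely restates that gene. The 2 highest sums were in homo replicates 1 and 3, at 284 and 268 TPM, and the 2 lowest in homo replicate 4 and hete replicate 4, at 233 and 235 TPM.

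**Figure D3:**
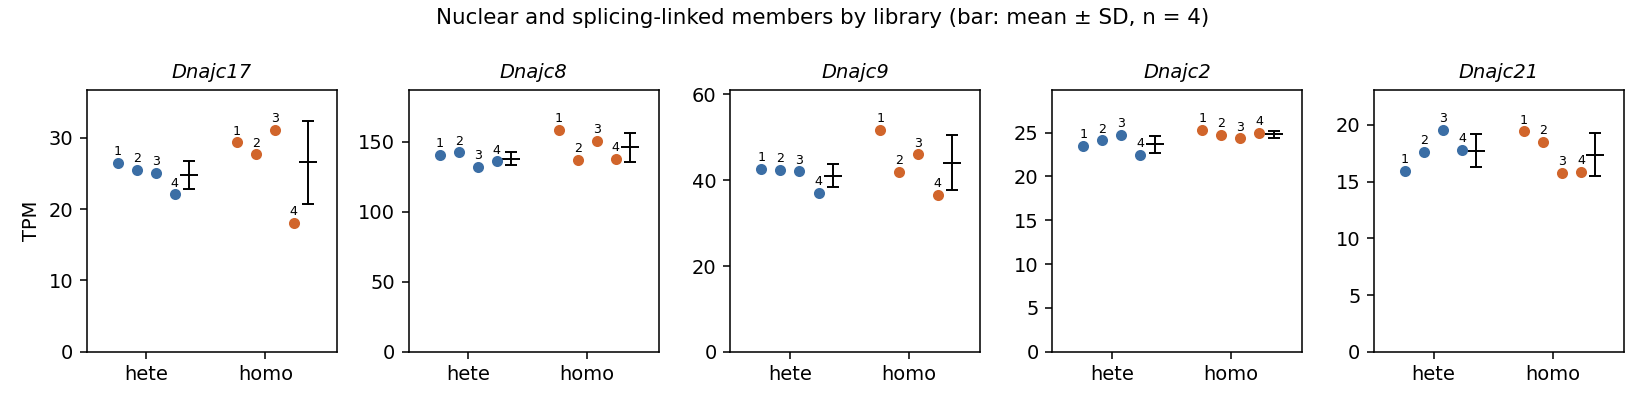
TPM (vertical axis, from 0) of Dnajc17, Dnajc8, Dnajc9, Dnajc2 and Dnajc21 in each hete (blue) and homo (orange) library, with the replicate number above each point and the mean ± SD of the 4 libraries at its right. Dnajc17 ranges from 18.04 to 31.08 TPM within homo, and no gene separates the groups.

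Cytosolic members take part in folding of new and stress-damaged proteins. None of the 12 passed the test, 4 being higher and 8 lower in homo, with a median log2 difference of -0.02. Over all tested genes 56.3% were higher, with a median of 0.02, and 0.0112% were called, which is also the background for the compartments below. Dnaja2, a partner of constitutive HSP70, had the largest positive value of the family and the smallest p of this group. It had 86.92, 81.65, 84.26 and 85.43 TPM in hete and 117.32, 85.51, 96.2 and 85.76 TPM in homo (log2 difference 0.17 with SE 0.10, adjusted p = 0.870 by limma-trend). Homo replicates 1 and 3 lay above all hete libraries and the other homo libraries within their range, and leaving out homo replicate 1 gave 0.07.

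Dnajc7 and Dnajb6, both among the 5 most abundant members, differed by -0.00 with SE 0.07 and by -0.01 with SE 0.06 on the log2 scale. Dnajb2, which hands clients to the proteasome, stood at 58.8 ± 6.95 TPM in hete and 57.7 ± 4.48 in homo. Dnajc24, needed for the diphthamide modification of elongation factor 2, stood at 20.5 ± 1.84 and 20.8 ± 2.39 TPM. Dnajc12, a co-chaperone of aromatic amino acid hydroxylases, had the widest upper interval of the family, up to 1.39 times the hete level. It ranged from 8.51 to 12.97 TPM in hete and from 8.97 to 14.76 in homo. Dnajc27, a J-domain protein with a small GTPase domain, stood at 6.25 ± 0.68 and 6.84 ± 0.47 TPM, and Dnajb5 at 10.5 ± 2.12 and 9.28 ± 1.72.

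Heat shock raises a known set of cytosolic members through heat shock factor, which binds heat shock elements, inverted repeats of GAA. The windows of 37 of the 45 members were found in RefSeq (GRCm38.p6), 50 windows in all; Dnajc2, Dnajc5, Dnajc5b, Dnajc11, Dnajc12, Dnajc18, Dnajc22 and Dnajc30 had none there. Paired units were searched on both strands as GAANNTTC and TTCNNGAA, which may overlap each other, and 15.1% of all 32851 windows held at least 1 of them. The family as a whole lay near that share, with a match in 8 of its 50 windows (16%), from 7 genes. These were Dnaja1, Dnaja4 and Dnajb4, which are on the heat shock responsive list, and Dnajb6, Dnajc10, Dnajc27 and Dnajc5g, which are not. Dnajb1, also on that list, had a window here but no match. Of the 18 windows of heat shock responsive genes 11 held a match, and of the 4 windows of nuclear and splicing-linked members 0 did, a number too small to set against the background. A match is a stretch of letters and not a measured binding site. One window each of Dnaja4 and Dnajb4 is shown because it carries such pairs, in capitals, 90 and 52 bases before the gene start in Dnaja4 and 14 bases before it in Dnajb4. Each of these genes has another window, at a different start, with no match.
Dnaja4 promoter, GRCm38.p6 chr9:54699309-54699608, plus strand: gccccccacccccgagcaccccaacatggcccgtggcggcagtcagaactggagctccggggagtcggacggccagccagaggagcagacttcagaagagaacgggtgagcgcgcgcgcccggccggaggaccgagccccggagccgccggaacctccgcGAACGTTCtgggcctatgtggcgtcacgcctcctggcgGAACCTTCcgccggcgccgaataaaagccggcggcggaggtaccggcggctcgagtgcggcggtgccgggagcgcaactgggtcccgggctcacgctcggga
Dnajb4 promoter, GRCm38.p6 chr3:152193796-152194095, minus strand: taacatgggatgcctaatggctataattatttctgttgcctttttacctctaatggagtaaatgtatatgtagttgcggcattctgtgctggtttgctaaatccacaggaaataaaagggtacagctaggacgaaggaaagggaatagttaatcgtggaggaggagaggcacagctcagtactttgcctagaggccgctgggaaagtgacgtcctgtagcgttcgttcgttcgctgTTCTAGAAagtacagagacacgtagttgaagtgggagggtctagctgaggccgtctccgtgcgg

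The 4 heat shock responsive members all had lower means in homo, and none passed the test. Dnajb1, the classical inducible HSP40, had 26.51, 26.03, 29.27 and 32.54 TPM in hete and 28.51, 26.48, 25.28 and 22.54 TPM in homo (log2 difference -0.15 with SE 0.10, adjusted p = 0.870 by limma-trend). Dnaja4 had 16.91, 18.55, 19.55 and 22.3 TPM in hete and 19.08, 17.12, 15.44 and 18.04 TPM in homo (-0.14, SE 0.10). In both genes hete replicate 4 was the highest library and the groups overlap. Without hete replicate 4 the log2 difference of Dnajb1 was -0.09, as it was without homo replicate 4.

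Dnajb4 ranged from 37.72 to 46.8 TPM in hete and from 35.6 to 42.82 in homo (log2 difference -0.11, SE 0.09). Dnaja1 ranged from 277 to 314 TPM in hete and from 256 to 313 in homo (-0.06, SE 0.08). Of the 13 heat shock responsive genes listed, these 4 included, 3 were higher and 10 lower in homo, with a median log2 difference of -0.07, which was -0.11 without homo replicate 1. Over all tested genes 56.3% were higher. Limma-trend called 0 of the 13, and 0 had an unadjusted p under 0.05, where 6.05% of all tested genes did. Hspa1a and Hspa1b, the inducible HSP70 genes, are near-identical copies whose reads may not be separable. They stood at 4.09 ± 0.61 and 7.24 ± 2.06 TPM in hete and at 3.46 ± 0.57 and 5.98 ± 1.25 in homo.

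Members of the endoplasmic reticulum help to fold or discard secreted and membrane proteins, and several are induced when unfolded proteins accumulate there. None of the 11 passed the test, 7 being higher and 4 lower in homo, with a median log2 difference of 0.00. The response is known to act in part through a promoter element searched here as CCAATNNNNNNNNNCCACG on both strands. It was found in 0.119% of all windows and in 4 of 10 stress-responsive genes of the endoplasmic reticulum with a window, namely Dnajc3, Hspa5, Hsp90b1 and Creld2. Dnajc3 was the only family member with a match, in capitals below, which begins 105 bases before the gene start.
Dnajc3 promoter, GRCm38.p6 chr14:118937682-118937981, plus strand: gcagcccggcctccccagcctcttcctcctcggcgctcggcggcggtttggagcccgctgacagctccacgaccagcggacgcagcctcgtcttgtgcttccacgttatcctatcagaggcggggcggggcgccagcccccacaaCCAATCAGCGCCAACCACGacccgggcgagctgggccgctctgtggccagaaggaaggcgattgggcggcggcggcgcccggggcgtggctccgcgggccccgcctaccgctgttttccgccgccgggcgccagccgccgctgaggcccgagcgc

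Dnajc3, a co-chaperone of Hspa5 that also restrains kinases of the stress response, had 52.35, 51.68, 63.04 and 64.79 TPM in hete and 67.99, 63.3, 63.55 and 59.53 TPM in homo (log2 difference 0.14 with SE 0.09, adjusted p = 0.870 by limma-trend). Hete replicates 1 and 2 lay below every homo library and hete replicates 3 and 4 within the homo range. Dnajb9, which turns off the stress sensor Ire1 when it is not needed, showed the same split within hete, at 31.89 and 28.48 TPM against 41.12 and 37.57, and ranged from 30.25 to 40.78 TPM in homo (log2 difference -0.01, SE 0.13). Hspa5, the HSP70 of this compartment, had 683, 650, 916 and 764 TPM in hete and 902, 890, 755 and 731 TPM in homo. For these genes the libraries of 1 group differed by as much as the groups did. Without hete replicate 2 the log2 difference of Dnajc3 was 0.09.

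Dnajb11, a partner of Hspa5 for nascent secreted proteins, ranged from 96.66 to 115.72 TPM in hete and from 106.22 to 117.74 in homo (log2 difference 0.10, SE 0.07). Dnajc10, a disulfide reductase with a J domain, had 69.78, 68.77, 69.01 and 76.71 TPM in hete and 71.68, 66.23, 71.46 and 62.95 TPM in homo (-0.06, SE 0.07). Its highest library was hete replicate 4 and its lowest homo replicate 4, with the other 6 libraries between 66.23 and 71.68 TPM. Of the 12 stress-responsive genes of this compartment that were listed, 10 were higher and 2 lower, with a median log2 difference of 0.09. Over all tested genes 56.3% were higher. The median was 0.03 without hete replicate 2, 0.05 without homo replicate 2 and 0.17 without hete replicate 3. Limma-trend called 0 of them, and 1 had an unadjusted p under 0.05, where 6.05% of all tested genes did. Pdia4, a disulfide isomerase, had the smallest p of them, at 278 ± 32.8 TPM in hete and 316 ± 11.6 in homo (log2 difference 0.19 with SE 0.08, adjusted p = 0.810 by limma-trend).

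The membrane-anchored members of the endoplasmic reticulum included Dnajb12 and Dnajb14, which send misfolded membrane proteins for degradation. Dnajb12 stood at 29.6 ± 3.25 TPM in hete and 31.6 ± 3.49 in homo, and Dnajb14 at 9.07 ± 0.60 and 8.38 ± 1.1. Dnajc1, which sits at the ribosome tunnel, stood at 19.1 ± 1.72 and 19.7 ± 1.66 TPM, and Dnajc14, an aid to receptor export, at 41.2 ± 4.76 and 40.3 ± 2.19. For Dnajc16, Dnajc18 and Dnajc25, whose log2 differences were 0.00, 0.00 and 0.12 (SE 0.11, 0.08 and 0.11), the groups overlap as well. For Dnajc16 and Dnajc18 the sign changed with the scaling.

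**Figure D4:**
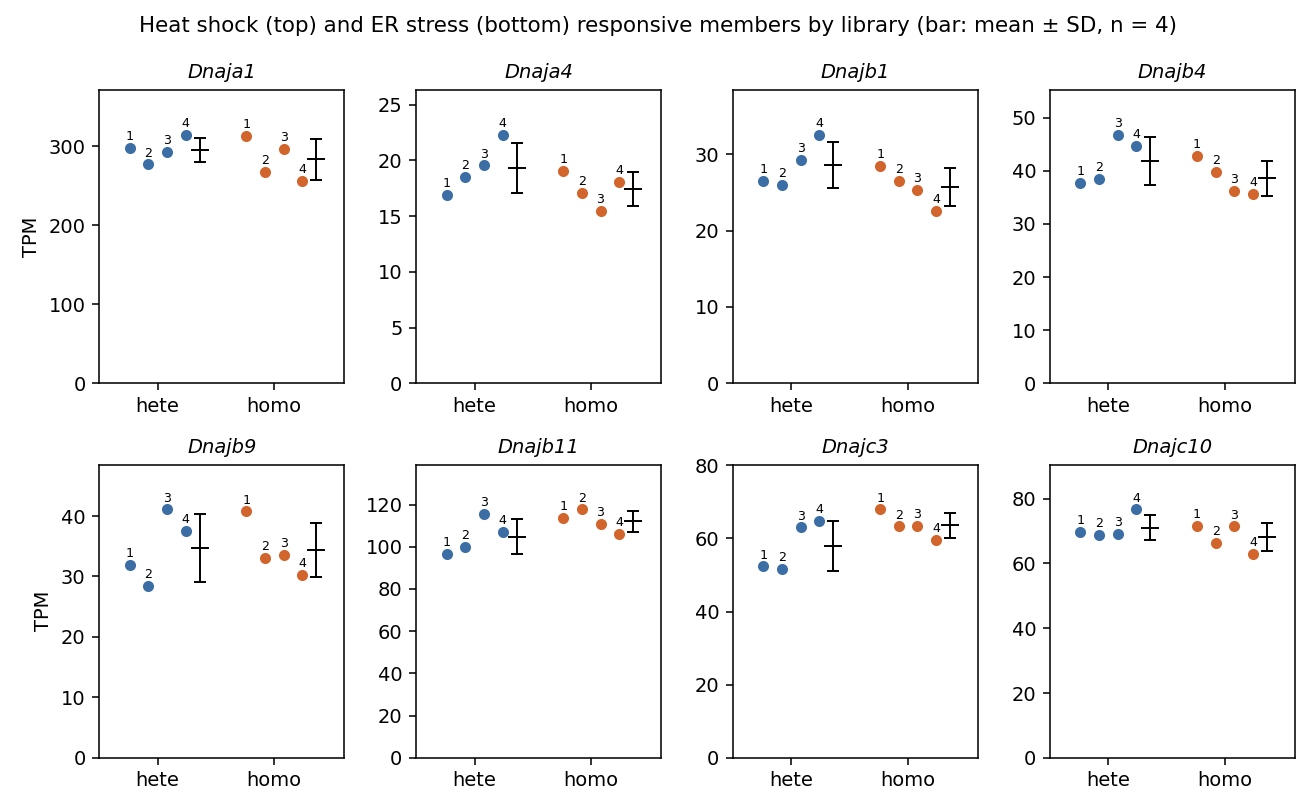
TPM (vertical axis, from 0) of the heat shock responsive members (top) and the members induced by stress of the endoplasmic reticulum (bottom) in each hete (blue) and homo (orange) library, with the replicate number above each point and the mean ± SD of the 4 libraries at its right. Hete replicates 3 and 4 lie above hete replicates 1 and 2 for Dnaja4, Dnajb1, Dnajb4, Dnajb9, Dnajb11 and Dnajc3, and all 8 genes overlap between the groups.

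Mitochondrial members serve the import motor and the folding of proteins in the matrix. Of the 7, 3 were higher and 4 lower, with a median log2 difference of -0.01, and limma-trend called 0. Dnajc28, whose role in mammals is little studied, had the smallest p of the family. It had 5.5, 6.32, 5.88 and 7.09 TPM in hete and 5.5, 4.57, 5.48 and 4.43 TPM in homo (log2 difference -0.26, SE 0.11, 95% interval -0.52 to -0.01; unadjusted p = 0.0448 and adjusted p = 0.815 in limma-trend). The groups met at 5.5 TPM, the value of both hete replicate 1 and homo replicate 1. It was the only member at an unadjusted p under 0.05, where the background is 6.05% of all tested genes. That count of 1 was 0 without hete replicate 3, hete replicate 4 or homo replicate 2, with at least 5 TPM in 4 libraries and with the replicate number as a block, and it was 2 without homo replicate 3.

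Dnajc19, a part of the motor of the inner membrane, was the most abundant mitochondrial member, at 66.3 ± 3.33 TPM in hete and 64.6 ± 8.4 in homo. Dnajc15, its close relative, stood at 12.5 ± 0.66 and 11.9 ± 0.99 TPM. Dnajc11, associated with the cristae organizing complex, ranged from 34.84 to 39.83 TPM in hete and from 39.04 to 42.04 in homo (log2 difference 0.10, SE 0.07). Dnaja3, the partner of the mitochondrial HSP70 Hspa9, stood at 35.5 ± 1.63 and 36.4 ± 2.36 TPM, and Hspa9 at 93.6 ± 3.46 and 97.6 ± 1.69. The remaining members, Dnajc30 and Dnajc4, differed by 0.04 with SE 0.07 and by -0.01 with SE 0.09.

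Vesicle and endosome members are of interest in a tissue with ribbon synapses and efferent endings. Dnajc5, the cysteine string protein that guards SNARE proteins on synaptic vesicles, ranged from 49.77 to 53.21 TPM in hete and from 49.79 to 55.36 in homo (log2 difference 0.05, SE 0.06). Dnajc13, which acts in sorting at endosomes, stood at 23.0 ± 2.26 and 23.1 ± 1.91 TPM. Dnajc6, auxilin, which uncoats clathrin vesicles in neurons, was low, at 3.74 to 6.29 TPM in hete and 3.5 to 6.32 in homo. Gak, the widely expressed relative of auxilin that lacks a Dnaj name, stood at 45.2 ± 5.73 and 44.6 ± 3.2 TPM. Both groups overlap for each of these genes.

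Dnajb13 had the lowest log2 difference of the family, at 3.19, 2.68, 2.89 and 4.48 TPM in hete and 2.37, 2.11, 3.01 and 2.24 TPM in homo (log2 difference -0.32 with SE 0.16, adjusted p = 0.867 by limma-trend). Hete replicate 4 was its highest library, and without that library the log2 difference was -0.20. Dnajb3 stood at 3.32 ± 0.35 TPM in hete and 3.31 ± 0.37 in homo.

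Across the family, calls were counted to see whether any other member was higher in the homo libraries. None of the 40 tested members changed between homo and hete at an adjusted p under 0.05 in limma-trend, where 2 of 17811 genes, 0.0112%, were called (0.00561% higher and 0.00561% lower). At an unadjusted p under 0.05 there was 1 member, Dnajc28. No member had non-overlapping groups, where 3.99% of all tested genes did. In direction the family was even, with 20 members higher and 20 lower, against 56.3% higher among all tested genes, and its median log2 difference was -0.00 beside 0.02 over all. Leaving out single libraries moved that median between -0.03 and 0.03. By subfamily, 2 of 4 Dnaja, 2 of 11 Dnajb and 16 of 25 Dnajc members were higher. The authors' deposited table of gene ontology enrichment for this comparison, with 387 terms, listed a family member under 0 terms.

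The precision of the members sets what sizes of change these data allow. The 95% interval lay within a 1.5-fold change either way for 39 of the 40 tested members, against 77.5% of all tested genes, and within 1.25-fold for 27, against 41%. The exception at 1.5-fold was Dnajb13, whose interval reached down to 0.628 times the hete level. The largest upper bound was 1.39 times, for Dnajc12. These intervals hold for 1 gene at a time, without adjustment over the family, and the added 1 TPM makes changes of low genes look smaller than they are. The median SE of the members was 0.09 and that of all tested genes 0.12, with median levels of 26.4 and 14.1 TPM. They cover the whole tissue, and a change within a minor cell type would be diluted in it.

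**Figure D5:**
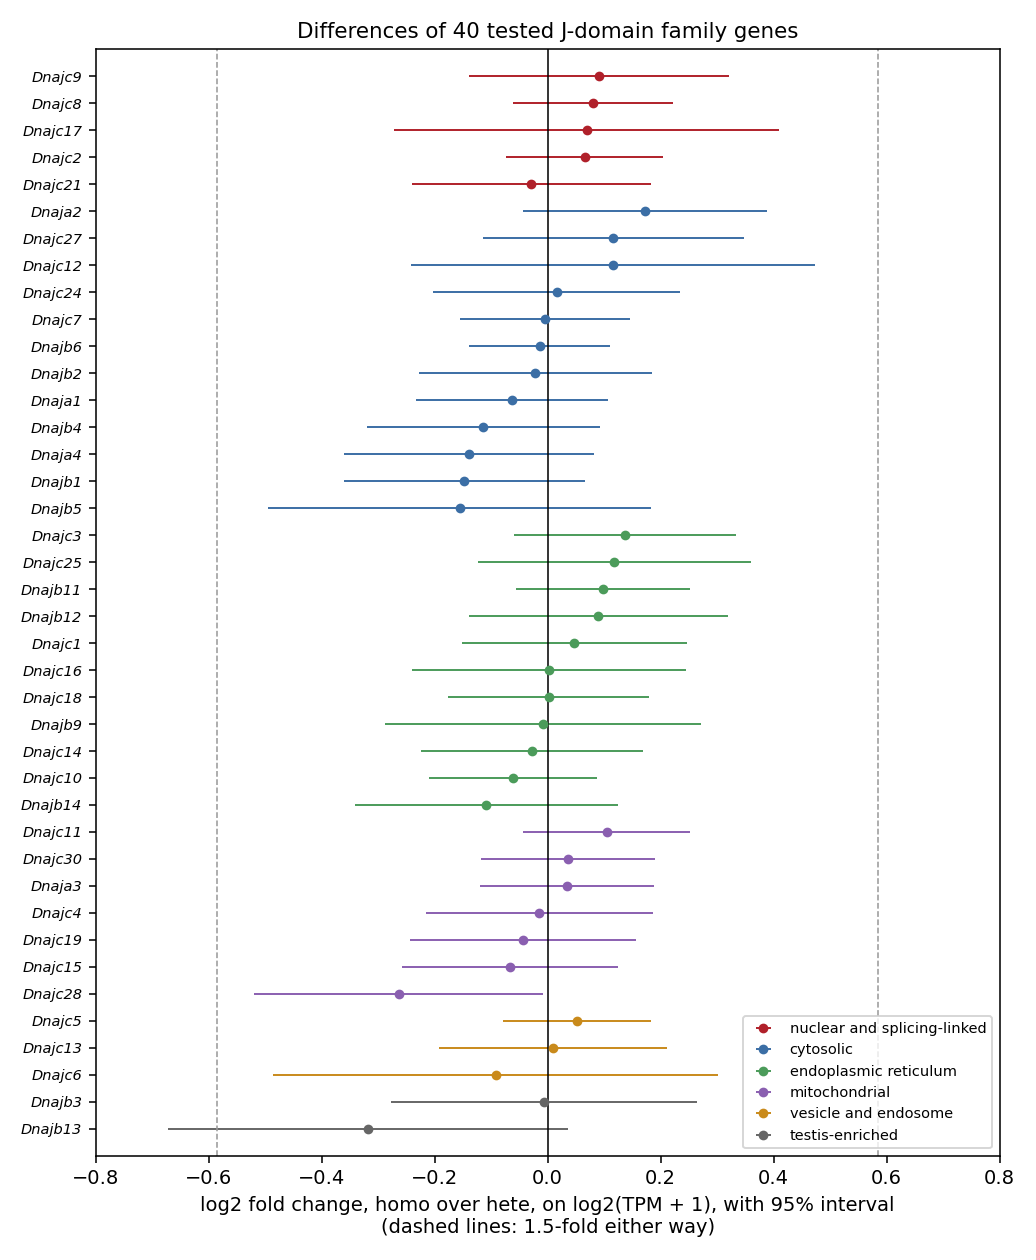
Log2 difference between homo and hete (horizontal axis, log2 fold change of TPM + 1) with its 95% interval for the 40 tested members, coloured by place of work, with dashed lines at a 1.5-fold change either way. Only the interval of Dnajb13 crosses a dashed line and only that of Dnajc28, the smallest p of the family, excludes 0 before adjustment.

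J-domain proteins named otherwise and the HSP70 system were read off the same fit. Of 36 genes in 4 lists, 21 were higher and 15 lower in homo, with a median log2 difference of 0.04. Limma-trend called 0 of them, and 2 had an unadjusted p under 0.05. These shares, 58.3% higher and 2 of 36, lay near the 56.3% and 6.05% of all tested genes. Hscb, a mitochondrial J-domain protein of iron-sulfur cluster assembly, had 20.54, 18.1, 19.45 and 18.03 TPM in hete and 23.14, 22.42, 21.26 and 23.6 TPM in homo (log2 difference 0.24 with SE 0.07, adjusted p = 0.680 by limma-trend). Its lowest homo library lay above its highest hete library, as groups did not overlap for 3.99% of all tested genes, and the test was not passed. Sec63 of the protein translocon was at -0.10 (SE 0.11) and Gak at -0.01 (SE 0.09).

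Among 15 HSP70 chaperones, 8 were higher and 7 lower (median log2 difference 0.01). Hspa8, the constitutive cytosolic HSP70, was the most abundant at 1247.8 ± 204 TPM in hete and 1243.73 ± 112 in homo. The smallest p values belonged to Hspa1a at -0.19 (SE 0.14) and Hspa12a, an atypical member, at 0.15 (SE 0.11). Among 14 exchange factors and co-chaperones of HSP70, 10 were higher and 4 lower (median 0.04). St13, which steadies HSP70 in its closed state, stood at 119 ± 7.38 and 133 ± 13.3 TPM (log2 difference 0.16 with SE 0.08, adjusted p = 0.870 by limma-trend) and Stip1, which links HSP70 to HSP90, at 0.09 (SE 0.07). Bag6, the most abundant of them, had 129 ± 9.32 and 136 ± 9.2 TPM.

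The partners known from yeast for the Cwc23 pathway were measured as a list of 3. Gcfc2, linked in human cells to spliceosomes bound to the excised intron, had 8.21, 7.59, 8.52 and 7.57 TPM in hete and 9.67, 9.53, 10.57 and 9.03 TPM in homo (log2 difference 0.25 with SE 0.09, adjusted p = 0.727 by limma-trend). Its groups did not overlap, as was so for 3.99% of all tested genes, and the gene did not pass the test. Dhx15, the helicase that dismantles these spliceosomes, stood at 94.8 ± 5.49 and 100.4 ± 6.8 TPM (0.08, SE 0.07), and Tfip11, its activator, at 23.8 ± 1.51 and 23.0 ± 1.63 (-0.05, SE 0.08).

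Dnajc1, Dnajc5, Dnajc10, Dnajc17 and Dnajc24 lie on chromosome 2. Of these 5, 4 were higher and 1 lower in homo, with a median log2 difference of 0.05. The highest was Dnajc17 itself, the gene named in the genotype, at 0.07. The others were at 0.05 (Dnajc1), 0.05 (Dnajc5), 0.02 (Dnajc24) and -0.06 (Dnajc10). Limma-trend called 0 of the 5, and their smallest unadjusted p was 0.375. Of the 35 tested members on other chromosomes 16 were higher and 19 lower, with a median of -0.01. Over all tested genes 56.3% were higher and the median was 0.02.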

How the data were processed

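RNA of the basilar membrane was sequenced by the submitters from 4 hete and 4 homo libraries. The TPM values were deposited by the authors for 78317 genes, with 2 decimals, and every library sums to 1000000 within 1 TPM. Fastp, HISAT2, StringTie, RSEM and DESeq2 and the build GRCm39 are named, with no role or version, per the submitters' processing notes. The p-values of a gene ontology enrichment were deposited by the authors, and only its gene names were read here.

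Groups came from the sample titles. On log2(TPM + 1), limma 3.58.1 in R 4.3.3 was fitted with genotype as the only term and eBayes with trend and robust options, over the 17811 genes that averaged 1 TPM or more, and p-values were Benjamini-Hochberg adjusted over all of them (threshold 0.05). Count models were not used, since TPM is no count, and depth per library is unknown. Members and gene lists were chosen with earlier results of these data known. The rule for named genes covers all members, and of the other lists the called genes, the 2 smallest p values and the most abundant gene. Genes named beyond it, and alternatives for the HSP70 system, were chosen after the data were seen. A gene in one of the lists is counted there but not reported here by name. Chromosomes and promoter windows came from RefSeq tables on GRCm38.p6, matched by symbol; no coordinates of the authors' build are given. Alternatives were another pseudocount (0.1), other filters, quantile normalization, rescaling over protein-coding nuclear genes, the replicate number as a block, eBayes without the robust option and each library left out. Figures used matplotlib 3.10.9 in Python 3.11.15.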

Additional observations from a re-analysis of the deposited data

Results flagged for a closer look

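In 2 of 80 groups checked (40 tested members in hete and in homo), 1 library stood apart from the other 3 by more than Dixon's 95% limit for 4 samples; such a gap arises by chance in about 1 in 20 groups. Both were in hete replicate 4. Dnajc10 was at 76.71 TPM there, with 68.77 to 69.78 in the other hete libraries, and Dnajc9 at 37.05 TPM, with 42.08 to 42.59 in the others. The explanation was not tested.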

How the results depend on the processing

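None of the 40 tested family members and none of the 36 listed genes of the HSP70 system and lariat disassembly was called by limma-trend under the 15 alternatives, of which the filter of at least 5 TPM in 4 libraries left 38 of the 40 and 33 of the 36, and no filter added 3 members. Over all genes, the 2 called (1 higher, 1 lower) became 1 with no filter on low values and 1 with the replicate block (0 higher in each case); with at least 5 TPM in 4 libraries 2 were lower. With 1 library left out, 1 to 5 genes were called, 0 to 3 higher and 1 to 3 lower. The log2 fold change of Dnajc17 stayed above 0 under the other 7 alternatives and ranged from -0.0136 to 0.2373 with 1 library left out. Of 55 other genes, 17 changed sign at least once, none past the threshold. With quantile normalization Dnajc13 was at -0.0145, Dnajc16 at -0.0117, Dnajc18 at -0.027, Dnajc24 at -0.003 and Dnajc7 at 0.0007. Rescaled over protein-coding nuclear genes, Dnajc16 was at -0.003, Dnajc18 at -0.0036 and Hspa8 at -0.0002. With 1 library left out, sign changes spanned -0.0078 to 0.06 for Dnaja3, -0.0841 to 0.049 for Dnajb2, -0.058 to 0.0436 for Dnajb3, -0.0308 to 0.0236 for Dnajb6, -0.0968 to 0.0748 for Dnajb9, -0.0371 to 0.0662 for Dnajc13, -0.0881 to 0.0312 for Dnajc14, -0.0556 to 0.1015 for Dnajc16, -0.0481 to 0.0306 for Dnajc18, -0.1256 to 0.0178 for Dnajc19, -0.081 to 0.0169 for Dnajc21, -0.0521 to 0.0685 for Dnajc24, -0.0767 to 0.0552 for Dnajc4, -0.2159 to 0.0266 for Dnajc6, -0.0402 to 0.0367 for Dnajc7, -0.0824 to 0.059 for Gak and -0.0767 to 0.1003 for Hspa8. The cause was not tested. Same-numbered hete and homo libraries did not deviate together (r of -0.08 to 0.05 over genes, 1 of 8 libraries correlating best with its own number). No pairing by number was therefore seen, though 4 pairs are too few to exclude a weak one. With the replicate block 0 members were called. The unknown depth limits statements on the 5 members under 1 TPM, and 4 libraries a group limit the size of change that can be called.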
